A study of Homo sapiens with 36 samples.

Results

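The direct comparison of YAP knockdown with TAZ knockdown in untransformed breast epithelial cells rested on 4 of the 36 libraries of the series, 2 labelled YAPi_ETH and 2 labelled TAZi_ETH, chosen by their labels alone. All were made from MCF-10A ER-Src cells, a non-malignant, immortalized line of human breast epithelium in which a v-Src oncoprotein, joined to a hormone receptor domain, stays silent until tamoxifen is added. YAPi_ETH cells received siRNA against YAP1 and TAZi_ETH cells siRNA against WWTR1, the gene symbol of TAZ, and both were kept in ethanol (ETH), the vehicle, so that the fusion protein was present but not induced. The 2 libraries of cells given a control siRNA and ethanol (Ctrli_ETH) did not enter the test and are given as levels only, and the same contrast was run in the 4 YAPi_TAM and TAZi_TAM libraries of cells treated with tamoxifen (TAM), for which the treatment notes name AZD0530, a Src family kinase inhibitor, beside tamoxifen.

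YAP and TAZ are paralogous transcriptional co-activators without a DNA-binding domain of their own, and they reach chromatin mainly through the TEAD factors. In the Hippo pathway the MST kinases (STK3 and STK4) activate the LATS kinases, which phosphorylate YAP and TAZ and keep them out of the nucleus. In stratified and mammary epithelia the pair are known for holding cells in a basal, proliferative state, and comparing the knockdowns with each other asks which transcripts depend more on one paralog than on the other.

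The study's methods name a commercial siRNA pool as the reagent transfected, and its reagent list gives, under the catalogue number of each pool, a single siRNA sequence for YAP1 and for TAZ. The 2 listed sequences are shown because they are the ones given for the targets, and whether the sequenced cells received them, alone or beside the pool, is not given in the sources used here. The first 2 lines give the listed strand, and the next 2 the guide strand computed as its reverse complement, with its seed (bases 2 to 8) in capitals.
YAP1 siRNA, listed strand: gacaucuucuggucagaga
TAZ siRNA, listed strand: acguugacuuaggaacuuu
YAP1 siRNA, guide strand: uCUCUGACcagaagauguc
TAZ siRNA, guide strand: aAAGUUCCuaagucaacgu
The YAP1 siRNA matched coding sequence in exon 2 of 9 of YAP1, at chr11:102114365-102114383 of GRCh38 on the plus strand, in 8 of 11 annotated transcripts, and it also matched the pseudogene YAP1P1. The TAZ siRNA matched coding sequence in exon 7 of 7 of WWTR1, at chr3:149520887-149520905 on the minus strand, in 6 of 12 transcripts and in no other gene. The closest stretch of the other paralog differed from the YAP1 siRNA at 7 of 19 positions and from the TAZ siRNA at 6 of 19, and the seeds of the guides are not the same.

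The 4 libraries held between 7942641 and 19153233 expected counts assigned to genes, the deepest being YAPi_ETH replicate 1. Mitochondrial transcripts took 0.578% and 0.624% of the counts in YAPi_ETH and 0.463% and 0.424% in TAZi_ETH, without overlap, and the part of this in the results was not tested. Mammary epithelial markers were present in all 4 libraries, at a summed level of 2190 to 2860 TPM (the deposited abundance, scaled for transcript length and library size) in YAPi_ETH and 4020 to 4420 in TAZi_ETH. Of the 8 markers 3 were called lower in YAPi_ETH, namely KRT14, KRT5 and KRT18. Of the leukocyte markers PTPRC and CD3E stayed under 0.1 TPM in every library, as did CDH5 and VWF among the endothelial and COL1A2 and PDGFRA among the fibroblast markers. CD68, a lysosomal protein counted among the leukocyte markers, was the only one of those 3 lists to be called, with 239 and 339.9 normalized counts in YAPi_ETH against 105 and 148 in TAZi_ETH. The summed level ranged from 14.7 to 16.8 TPM against 11.7 to 13.2 for leukocyte markers, from 148 to 183 against 139 to 157 for fibroblast markers and from 0.6 to 0.64 against 1.23 to 1.34 for endothelial markers, YAPi_ETH being named first. In bulk RNA, fewer cells of a kind and less RNA per cell cannot be told apart.

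Each siRNA lowered its own target and left the paralog near the control level. YAP1 was at 364 and 393 normalized counts in YAPi_ETH, at 1842 and 1599.5 in TAZi_ETH and at 2038 and 1894 in Ctrli_ETH. The YAPi libraries were thus low, and the TAZi libraries lay just below the controls. WWTR1 was at 392 and 354 in YAPi_ETH, at 108 and 105 in TAZi_ETH and at 367 and 407 in Ctrli_ETH, so that only the TAZi libraries were low and the YAPi libraries overlapped the controls. The log2 fold change of YAPi over TAZi was -2.18 ± 0.16 for YAP1 (SE, adjusted p = 3e-39, DESeq2) and 1.82 ± 0.26 for WWTR1 (adjusted p = 4.7e-10), n = 2 per group. Residual transcript of both targets remained, so the contrast is between partial knockdowns.

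**Figure D1:**
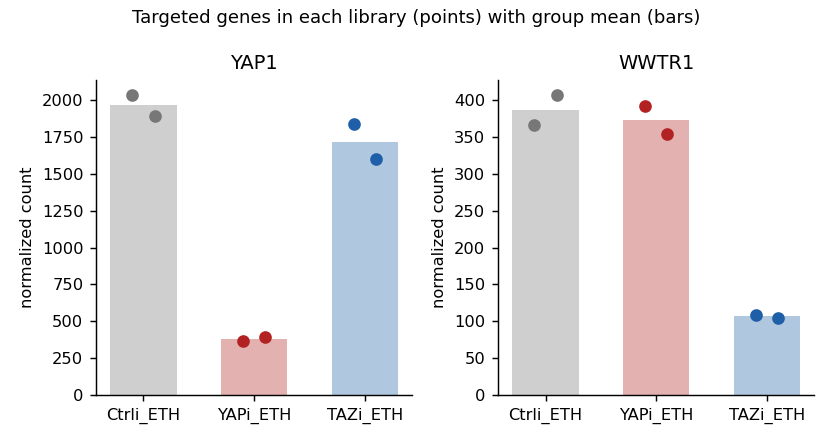
Normalized counts (y axis, from 0) of YAP1 (left) and WWTR1 (right) in the control, YAP knockdown and TAZ knockdown libraries under ethanol; points are the 2 libraries of a group and bars their mean. YAP1 was low only in YAPi_ETH (364 and 393) and WWTR1 only in TAZi_ETH (108 and 105).

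Knockdown of YAP and knockdown of TAZ left different transcriptomes in these untransformed cells. Among the gene lists examined, that of cornified envelope and keratinocyte differentiation genes had the largest share called higher after YAP knockdown. The list of sterol and fatty acid synthesis genes had the largest share called lower. Histone genes, which were not examined as a list, were also among the genes called lower. Of 14313 genes with an adjusted p, 595 were called at an adjusted p under 0.01 (4.16%), 296 higher in YAPi_ETH (2.07%) and 299 lower (2.09%). A difference of at least 2-fold was found in 122 of the genes called higher and 121 of those called lower, and the median size was 0.86 on the log2 scale. Of the 595, 546 were protein-coding, and the 2 libraries of a group lay wholly above or below the others in 594, as they did in 56.8% of all genes tested. The edgeR quasi-likelihood test called 182 genes, 180 of them among the 595 with the same direction, and leaving out 1 library left 208 calls without YAPi_ETH replicate 1, 174 without TAZi_ETH replicate 1, 145 without TAZi_ETH replicate 2 and 143 without YAPi_ETH replicate 2. Nothing in the labels says that the 2 libraries of a group came from separate cultures, so that the p-values measure only the spread between these libraries, which may be technical. The log2 ratio between the 2 libraries of a group had an SD of 0.25 in YAPi_ETH and 0.306 in TAZi_ETH over genes with a mean of at least 100 normalized counts, against 0.103 and 0.129 expected from counting alone.

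**Figure D2:**
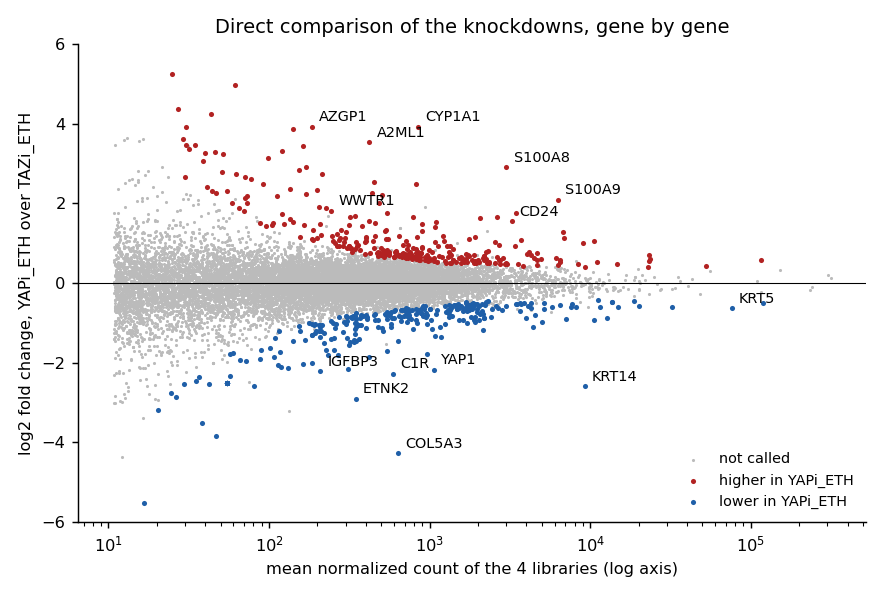
Log2 fold change of YAPi_ETH over TAZi_ETH (y axis) against the mean normalized count (x axis, log scale) for the genes with an adjusted p; red points were called higher in YAPi_ETH (296 genes) and blue points lower (299 genes), and 9 genes beyond a log2 fold change of 6 in size are not drawn. Of the labelled genes, COL5A3, ETNK2 and KRT14 lie lowest and AZGP1, CYP1A1 and A2ML1 highest.

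Genes of the cornified envelope and of terminal keratinocyte differentiation stood out among those higher after YAP knockdown. The envelope is the protein shell that terminally differentiating keratinocytes build under their membrane. Of the 27 members of this joint list 17 had an adjusted p, and 13 were called higher, 1 lower and 3 neither. This was 82.4% called, beside 4.16% of all genes tested. The median log2 fold change was 2.74 against 0.01 over all genes tested. Since 4 of the 13 (KLK5, SPRR2D, SPRR3 and TGM3) had a TAZi_ETH mean under 10.9 normalized counts, the lowest overall mean with an adjusted p, they were tested only because of their YAPi_ETH level, which leaves 9 of 12 tested members once all such genes (DSG1 also) are set aside. SPRR1B, a proline-rich envelope precursor, was at 243 and 343 normalized counts in YAPi_ETH and at 23.9 and 31 in TAZi_ETH (log2 fold change 3.43 ± 0.37, adjusted p = 1.2e-17). SBSN, suprabasin, was at 258 and 328 against 43.3 and 35 (2.9 ± 0.34, adjusted p = 3.1e-15). IVL, involucrin, the classical envelope scaffold, was at 88.9 and 124 against 17.1 and 14.8 (2.74 ± 0.52, adjusted p = 1.2e-05). In each of these the groups were far apart and Ctrli_ETH was lower still, with 7.68 and 13.1 for SPRR1B, 15.4 and 24 for SBSN and 5.76 and 7.63 for IVL. The desmosomal cadherin DSC2 rose too, to 1098 and 1249 against 371 and 379.7 (1.65 ± 0.17, adjusted p = 2.2e-19). TGM1, the transglutaminase that cross-links envelope proteins, was the member called lower, with 599 and 741 against 1155 and 1271 (log2 fold change -0.85 ± 0.17, adjusted p = 3.1e-05), while TGM3, a second transglutaminase, was among those higher, with 48.9 and 64.3 against 6.83 and 4.04. KRT10, an early differentiation keratin, was not called (log2 fold change -0.27). The Ctrli_ETH mean was below both knockdowns for 12 of the 13 genes called higher. With either YAPi_ETH library left out 7 of the list were called higher, and with either TAZi_ETH library left out 8 were, while TGM1 kept its call only without YAPi_ETH replicate 2. Reads of SPRR2D can be shared with its near-identical neighbours, so its value is uncertain.

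The S100 and antimicrobial genes of the same list were called higher as well, and S100A9 and S100A8 had the highest normalized counts among the list's called genes. S100A8, a calcium-binding subunit of calprotectin, was at 5468 and 4956 normalized counts in YAPi_ETH, at 646 and 759 in TAZi_ETH and at 341 and 331 in Ctrli_ETH (log2 fold change 2.9 ± 0.14, adjusted p = 4.9e-93). Its partner S100A9 was at 10120.3 and 9796 against 2234 and 2464, with 1335 and 1459 in the control (2.09 ± 0.12, adjusted p = 1.5e-66). Both knockdowns were thus above the control for both genes, YAPi_ETH by far the more. S100A7, psoriasin, was at 347 and 173 against 15.9 and 20.2 (3.87 ± 0.45), with the control at the TAZi level (22.1 and 20.7). PI3, elafin, an elastase inhibitor, was at 1347 and 1403 against 207 and 292 (2.48 ± 0.19), again with the control near TAZi_ETH (229 and 215). The siderophore-binding LCN2 was at 81.1 and 63.2 against 17.1 and 12.1 (2.31 ± 0.59, adjusted p = 0.0027).

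Several of these genes lie together on chromosome 1. From S100A10 to S100A1 (chr1:151982915-153632039, GRCh38), a stretch taken up after the values had been seen, 22 genes had an adjusted p, of which 10 were called higher in YAPi_ETH and 1, S100A3, lower, where 2.07% of all genes tested were called higher. Since the stretch was chosen for these values and SPRR2D and SPRR3 were tested only because of their YAPi_ETH level, the count is a description. The 10 were S100A6, S100A7, S100A8, S100A9, S100A13, S100A16, IVL, SPRR1B, SPRR2D and SPRR3, all but S100A6, S100A13 and S100A16 being members of the cornified list as well.

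AP-1 factors, dimers of JUN and FOS proteins, are known regulators of envelope genes, and the letters they prefer, TGANTCA (the same on both strands), were looked up in the promoter windows of the RefSeq table (GRCh38.p14, 250 bases before to 50 after the gene start). Of the 13 cornified genes called higher 11 had a window, and 5 of these held the letters, as did 7.76% of all 27305 windows. The TEAD letters GGAATG were in 5 of the 11 and in 14% of all windows, and the ETS letters CCGGAAG in 2 of the 11 and in 10.7%, on either strand. The AP-1 matches are shown with 20 bases on each side on the strand of the gene, the 7 letters in capitals.
IVL, chr1:152908403-152908449, plus strand: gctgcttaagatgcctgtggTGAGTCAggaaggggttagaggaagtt
SPRR1B, chr1:153031042-153031088, plus strand: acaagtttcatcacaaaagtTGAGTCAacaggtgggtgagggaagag
SPRR1B, chr1:153031072-153031118, plus strand: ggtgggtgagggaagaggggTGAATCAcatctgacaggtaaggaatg
SPRR3, chr1:153001559-153001605, plus strand: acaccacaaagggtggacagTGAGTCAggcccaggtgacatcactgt
SBSN, chr19:35528356-35528402, minus strand: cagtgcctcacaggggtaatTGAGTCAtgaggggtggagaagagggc
SBSN, chr19:35528458-35528504, minus strand: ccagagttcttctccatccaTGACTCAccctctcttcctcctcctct
LCN2, chr9:128149381-128149427, plus strand: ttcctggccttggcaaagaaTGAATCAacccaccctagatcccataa
The matches describe the letters of these windows and do not show binding. The genes were picked by their values, SPRR3 being tested only because of its YAPi_ETH level. All windows are not a set matched to them, so the shares are a description. The wider comparison of motif shares between all genes called higher and lower was void, since only 79.4% of the 281 protein-coding genes called higher and 78.5% of the 265 called lower had a window, under the 80% that was required.

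Outside the cornified list, the genes highest in YAPi_ETH over TAZi_ETH included several secreted and surface proteins. AZGP1, a zinc-binding secreted glycoprotein, was at 358 and 320.3 normalized counts against 14.8 and 31 (log2 fold change 3.93 ± 0.37, adjusted p = 3.4e-23). The protease inhibitor A2ML1 was at 735 and 791 against 54.7 and 79.4 (3.53 ± 0.24, adjusted p = 1.4e-43). The ectonucleotidase ENTPD3 was at 199 and 228 against 20.5 and 22.9 (3.31 ± 0.4). For all of these the control libraries were below both knockdowns, at 9.61 and 10.9 for AZGP1, 21.1 and 31.6 for A2ML1 and 1.92 and 6.54 for ENTPD3. The water and glycerol channel AQP3 was at 306 and 425 against 60.4 and 48.5 (2.75 ± 0.31), and the surface antigen PSCA at 589 and 924 against 117 and 145 (2.53 ± 0.25). CYP1A1, the xenobiotic-metabolizing enzyme induced through the aryl hydrocarbon receptor, was at 757 and 2388 against 74 and 135. Its YAPi libraries were far apart from each other, and the log2 fold change was 3.92 ± 0.85 (adjusted p = 0.00024). FAM25A (2.83 ± 0.39) has near-identical copies that could share its reads, and its value is uncertain.

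**Figure D3:**
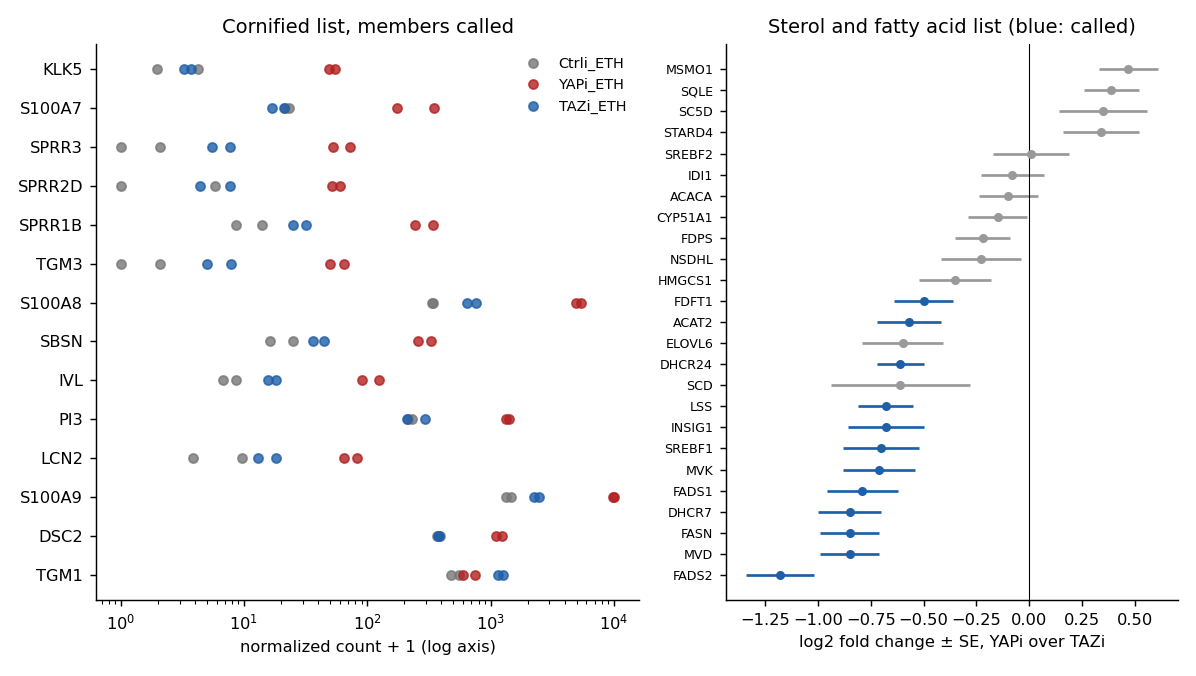
Left, normalized count plus 1 (x axis, log scale) of the called cornified list members in each library of Ctrli_ETH, YAPi_ETH and TAZi_ETH; right, log2 fold change with SE of YAPi_ETH over TAZi_ETH for 25 of the sterol and fatty acid synthesis genes tested, blue where called. YAPi_ETH lies to the right for 13 cornified genes and to the left of TAZi_ETH for TGM1, and the 12 blue genes on the right all lie below 0.

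A collagen chain and a basal keratin were among the genes lowest in YAPi_ETH relative to TAZi_ETH. COL5A3, a fibrillar collagen chain, was at 73.9 and 45.8 normalized counts in YAPi_ETH and at 1249 and 1158 in TAZi_ETH (log2 fold change -4.27 ± 0.22, adjusted p = 3.5e-78). Ctrli_ETH was at 99.9 and 211, so that the level in TAZi_ETH was the one far from the control. KRT14, a basal keratin, was likewise farther from the control in TAZi_ETH than in YAPi_ETH, with 2195 and 2989 in YAPi_ETH, 15453 and 15847 in TAZi_ETH and 4722 and 6087 in Ctrli_ETH (-2.59 ± 0.14, adjusted p = 1.3e-68). The ethanolamine kinase ETNK2 was at 81.7 and 78.4 against 608 and 601, with 207 and 314 in the control (-2.9 ± 0.23, adjusted p = 4.7e-34). The complement protease C1R was at 228 and 167 against 972 and 982, with 416 and 433 in the control (-2.28 ± 0.2, adjusted p = 5.5e-27). For both of these the control lay between the knockdowns. The growth factor binding proteins IGFBP3 (-2.21 ± 0.31) and IGFBP4 (-2.05 ± 0.38), the growth arrest protein GAS1 (-2.16 ± 0.29), the gamma-glutamyl transferase GGT5 (-2.1 ± 0.38), RIPOR2 (-2.04 ± 0.34) and the ubiquitin ligase NEURL1B (-2 ± 0.32) completed the group with YAP1 itself. IFITM1, an interferon-induced membrane protein, was at 48.3 and 42.5 against 185 and 149 (-1.86 ± 0.36), with the control above both at 245 and 251.

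The genes called lower included 17 copies of the 5S ribosomal RNA gene or its pseudogene that held the same values, 20.6 and 10.9 normalized counts in YAPi_ETH and 136 and 49.8 in TAZi_ETH (log2 fold change -2.52 ± 0.6). Reads of such identical copies cannot be told apart, so they stand for a single measurement and not for 17 genes.

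Placed against the control libraries, most differences came with the TAZi_ETH level nearer to Ctrli_ETH. On the log2 scale the control mean was nearer to TAZi_ETH than to YAPi_ETH for 236 of the 296 genes called higher (79.7%) and for 210 of the 299 called lower (70.2%). Of the genes called higher, the control lay below TAZi_ETH for 140, between the knockdowns for 96 plus 52 and above YAPi_ETH for 8. Of those called lower, it lay above TAZi_ETH for 111, between for 99 plus 62 and below YAPi_ETH for 27. These placements are descriptions without a test. The same shares were not computed over all genes tested, so they are not shown to be particular to the genes called.

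Sterol and fatty acid synthesis genes were lower after YAP knockdown than after TAZ knockdown. Of 27 genes with an adjusted p 13 were called (48.1%, beside 4.16% of all genes tested), every one of them lower. Their log2 fold changes ran from -1.18 to -0.5, and the median over the list was -0.51 against 0.01 over all genes tested. FADS2, a fatty acid desaturase, was at 1489 and 1084 normalized counts in YAPi_ETH, 3029 and 2869 in TAZi_ETH and 2916 and 2944 in Ctrli_ETH (-1.18 ± 0.16, adjusted p = 7.1e-11). MVD, the decarboxylase of the mevalonate pathway, was at 1327 and 1225 against 2174 and 2459.9, with 2242 and 2393 in the control (-0.85 ± 0.14, adjusted p = 1.9e-07). In both the YAPi libraries were low and the TAZi libraries were at the control level. Fatty acid synthase FASN (-0.85 ± 0.14), the last enzyme of cholesterol synthesis DHCR7 (-0.85 ± 0.15) and the transcription factor SREBF1 (-0.7 ± 0.18) were called, whereas the related SREBF2 was at 0.01 ± 0.18 and was not called. These were modest differences, and of the 13 calls 1, FADS2, was also called by edgeR, whose adjusted p ran from 0.0087 to 0.061 over the 13, and 7 of them were called without YAPi_ETH replicate 1, 5 without TAZi_ETH replicate 1, 3 without YAPi_ETH replicate 2 and 1 without TAZi_ETH replicate 2.

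Several cytokines and growth factor ligands were higher in YAPi_ETH than in TAZi_ETH. Of 15 cytokines and chemokines tested 6 were called higher and 1 lower (46.7%), beside 4.16% of all genes tested. IL1A was at 1331 and 1873 normalized counts against 524 and 592 (log2 fold change 1.53 ± 0.19, adjusted p = 6.3e-14). IL1RN, the antagonist of the same receptor, was at 224 and 324 against 53.5 and 63.3 (2.24 ± 0.33, adjusted p = 2.6e-09), so that agonist and antagonist were higher together. IL1B (1.17 ± 0.2), the chemokines CCL20 (1.1 ± 0.2) and CXCL8 (0.85 ± 0.22) and the granulocyte factor CSF3 (0.86 ± 0.15) were called as well. With edgeR CXCL8 and CSF3 were not called. CSF1, the macrophage growth factor, went the other way, with 304 and 189.6 against 780.2 and 859 and a control at 258 and 302 (-1.71 ± 0.23, adjusted p = 1.8e-11). Of 21 EGF receptor pathway genes the ligands HBEGF (1.9 ± 0.3), TGFA (0.87 ± 0.24) and EREG (0.84 ± 0.18) were called higher and none lower, of which only HBEGF was called with edgeR and none without YAPi_ETH replicate 2. IL6 could not be compared at this depth, since 3 of the 4 libraries had no count and the fourth had 2.69 normalized counts.

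Basal and adhesion genes split between the directions. Of 16 basal keratin, hemidesmosome and laminin-332 genes 5 were called higher in YAPi_ETH and 2 lower. This was 43.8%, beside 26.7% of the integrins, 23.5% of the luminal list and 4.16% of all genes tested. Among chains of laminin-332, an anchor of basal epithelia, LAMB3 was at 8270.1 and 10359.5 normalized counts against 3866 and 4673 (log2 fold change 1.13 ± 0.14, adjusted p = 1.1e-12) and LAMA3 at 5039.9 and 5575 against 3469 and 3475 (0.62 ± 0.12). The stress keratin KRT16 was at 3146 and 4746 against 1095 and 1408, with the control at 229 and 318 (1.67 ± 0.19), and KRT6B rose by 1.75 ± 0.24, while KRT14 and its partner KRT5 (-0.63 ± 0.15) were lower. KRT17 (0.06 ± 0.36) and KRT6A (0.41 ± 0.33) were not called, and keratins with near-identical copies, KRT6B among them, can share reads. Among 15 integrins ITGAV (1.16 ± 0.13), ITGA5 (0.64 ± 0.14) and ITGB1 (0.53 ± 0.12) were higher and the collagen receptor ITGA1 lower (-1.39 ± 0.24). Of 17 luminal and epithelial lineage genes the claudin CLDN4 (3.3 ± 0.72) and the transcription factor GRHL1 (2.14 ± 0.45) were higher and KRT7 (-0.59 ± 0.14) and KRT18 (-0.53 ± 0.14) lower. With edgeR 2 of the 4 integrin calls and 1 of the 4 luminal calls were kept, and with a library left out 1 to 2 and 0 to 1.

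In the protease, mesenchymal, contractile and TGF-beta lists 37.5%, 26.1%, 14.3% and 11.1% were called, beside 4.16% of all genes tested. Of 16 protease, urokinase system and inhibitor genes 6 were called higher and none lower, including ADAMTS6 (1.73 ± 0.35), the inhibitor SERPINE2 (1.45 ± 0.3), the urokinase gene PLAU (1.14 ± 0.25) and TIMP1, an inhibitor of matrix metalloproteinases (1.09 ± 0.15). Of these 6 calls 4 were kept with edgeR, 3 without YAPi_ETH replicate 1 and 2 without YAPi_ETH replicate 2 or without TAZi_ETH replicate 1. SERPINB5, a serpin, was called too (0.93 ± 0.14), so that the calls were not of proteases alone. Of 23 mesenchymal genes 4 were higher, led by fibronectin FN1 with 15820.2 and 12022 normalized counts against 7479.8 and 5918 (1.07 ± 0.15) and by POSTN (0.88 ± 0.2), and 2 were lower, COL12A1 (-1.02 ± 0.17) and THBS1 (-0.61 ± 0.15). None of these 6 mesenchymal calls was kept with edgeR, and 2 were kept with either TAZi_ETH library left out, 3 without YAPi_ETH replicate 2 and 5 without YAPi_ETH replicate 1. Of 21 contractile and SRF target genes TPM4 was higher (0.47 ± 0.12) and CNN3 (-0.88 ± 0.19) and TPM1 (-0.78 ± 0.16) lower. Of 18 TGF-beta pathway genes LTBP1 was higher (0.52 ± 0.14) and ID1 lower (-1 ± 0.17). With edgeR the contractile list had 1 call, in the lower direction, and the TGF-beta list had none.

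Among genes of the pathway and its textbook targets, 1 scaffold and 4 targets were called, against 4.16% of all genes tested. Of 17 Hippo kinases, scaffolds and inhibitors tested the scaffold WWC1 alone was called, with 509 and 593 normalized counts against 811 and 899 (log2 fold change -0.63 ± 0.17, adjusted p = 0.008), and the others ran from -0.54 for SAV1 to 0.26 for the kinase TAOK1. The call, 5.88% of the list, was not made with edgeR (adjusted p = 0.027), TMM factors (0.0102), effective lengths (0.13) or the replicate block (0.017), nor with any 1 library left out. None of 6 TEAD and VGLL genes tested was called, TEAD1 being at 1236 and 1139.7 against 1264 and 1227 (-0.06 ± 0.15). Of 22 widely used YAP/TAZ target genes 3 were called higher and 1 lower (18.2%), with a median of 0.08. CCN1 (0.15 ± 0.18), CCN2 (0.08 ± 0.37) and ANKRD1 (0.45 ± 0.43), the most used reporters of YAP and TAZ activity, were not called, and in Ctrli_ETH they were near both knockdowns, CCN1 at 748 and 729 against 771 and 704 in YAPi_ETH and 728 and 613 in TAZi_ETH. The targets called were F3, tissue factor, with 2485 and 3646 against 932 and 1068 (1.62 ± 0.18), NT5E, an ectonucleotidase, with 1515 and 1564 against 544 and 619 (1.41 ± 0.15), AXL, a receptor tyrosine kinase (0.54 ± 0.14), and IGFBP3 in the other direction. With edgeR and with effective lengths AXL was not called, while F3, NT5E and IGFBP3 were. NT5E and AXL were near the control in YAPi_ETH, with 1351 and 1196 for NT5E in Ctrli_ETH, whereas F3 was near the control in TAZi_ETH, with 945 and 782.

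The transcription factors that the study set beside YAP and TAZ were not called between the knockdowns. STAT3 was at 1870.2 and 1802 normalized counts against 2297 and 2282 (log2 fold change -0.31 ± 0.13, adjusted p = 0.14), and the groups did not overlap. JUNB was at -0.09 ± 0.19 and NFKB1 at -0.13 ± 0.16. In the lists around them 1 of 8 AP-1 genes was called, JUND (-0.93 ± 0.25), 1 of 18 STAT and IL-6 family genes, the receptor chain IL6R, with 575 and 671 against 261 and 296 (1.17 ± 0.2), and 1 of 15 NF-kB genes, BIRC3 (0.65 ± 0.14). These shares were 12.5%, 5.56% and 6.67%, beside 4.16% of all genes tested. With edgeR neither the AP-1 nor the NF-kB list had a call. The AP-1 list also had none with effective lengths or in the fit over all groups.

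Proliferation, p53 and ribosome lists had 1 call each, shares of 1.28% to 5% where 4.16% of all genes tested were called. One member was called in each of the lists of 34 DNA replication genes (MCM2, -0.57), 30 mitosis genes (CDC20, -0.51), 20 p53 targets (FDXR, -1.14), 29 ribosome biogenesis genes (RRN3, 0.7) and 78 mitochondrial ribosomal proteins (MRPL12, -0.74), though 26 of the 34 replication genes and 25 of the 30 mitosis genes had estimates below 0. With a library left out the median ran from -0.311 to -0.045 for the replication list and from -0.405 to 0.044 for the mitosis list. Outside these lists, every histone gene that was called was lower. Among them were H2AC7 (-1.47) and H3C11 (-0.97), which were at -1.33 and -0.95 under tamoxifen. None of 14 Notch and Wnt genes and none of 12 genes of the RNA interference machinery was called, and lists this short can hold no call at that share. Of 19 ATF4 and unfolded protein response genes 3 were lower in YAPi_ETH, the serine and one-carbon enzymes PHGDH (-1.43 ± 0.25) and SHMT2 (-0.94 ± 0.14) and the mTORC1 inhibitor DDIT4 (-0.9 ± 0.12). Of 20 glycolysis and hypoxia genes HK2, a hexokinase, was lower (-1.16 ± 0.16) and CA12, a carbonic anhydrase, higher (1.1 ± 0.17). Of 24 interferon-stimulated genes IFI27 was higher (2.02 ± 0.48) and IFITM1 and IFITM3 (-0.72 ± 0.13) lower.

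**Figure D4:**
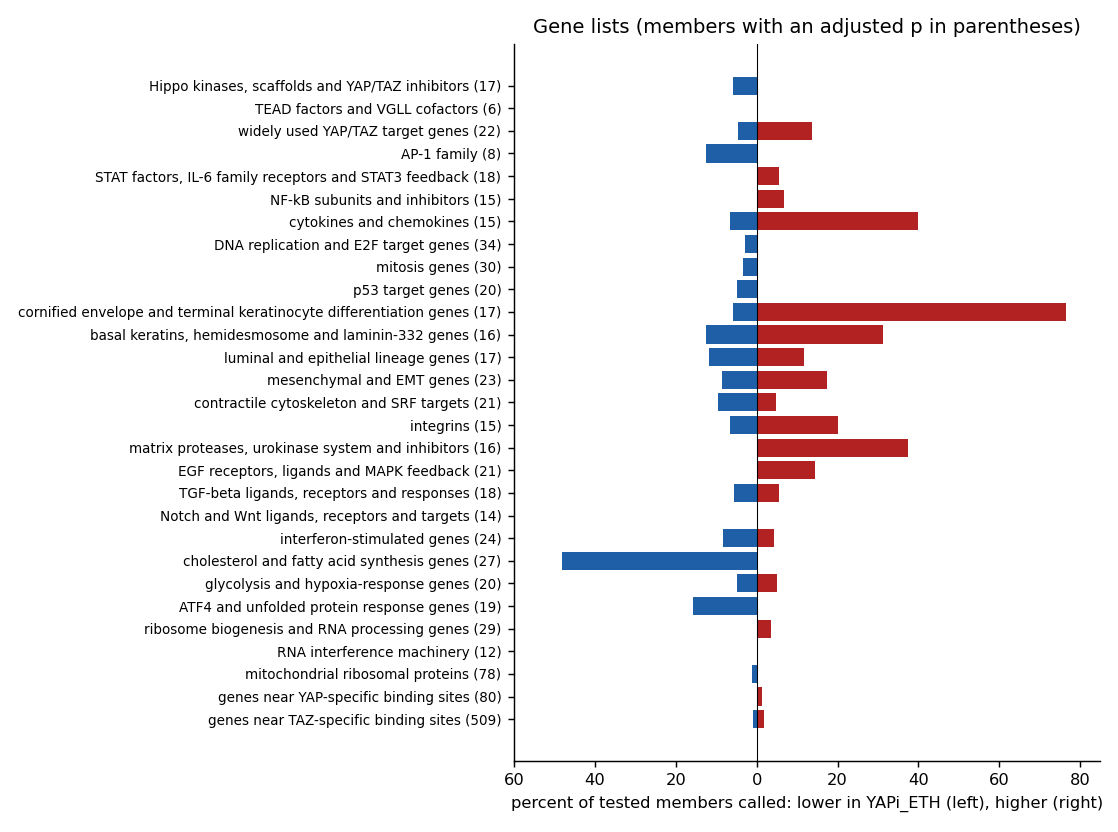
Percent of the tested members of each gene list (number tested in parentheses) that were called lower (blue, left) or higher (red, right) in YAPi_ETH than in TAZi_ETH. The cornified list (13 higher and 1 lower of 17) and the cholesterol and fatty acid list (13 lower of 27) reach furthest, against 4.16% called among all genes tested.

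Of 80 tested genes near YAP-specific sites 1 was called higher and none lower, with a median of 0.04, and of 509 near TAZ-specific sites 9 were called higher and 5 lower, with a median of 0.06. These shares, 1.25% and 2.75%, were below the 4.16% of all genes tested. The site lists came from binding data on the same cell model, and no test was made of them. The list for TAZ holds more genes than the list for YAP, and not every listed name was found in the files (88 of 110 and 553 of 668).

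In the YAPi_TAM and TAZi_TAM libraries, which share none with the ethanol contrast, 923 of 14600 genes were called (6.32%), and 319 genes were called in the same direction in both, 53.6% of the ethanol calls and 34.6% of the tamoxifen calls. The sign of the estimate was the same for 97% of the 595 ethanol calls and for 68.7% of all genes tested under ethanol. COL5A3 kept its size (log2 fold change -4.18 ± 0.27 under tamoxifen), as did YAP1 (-2.32 ± 0.14) and WWTR1 (2.05 ± 0.24). Of the 13 cornified genes called higher all had estimates above 0 and 9 were called, among them SPRR1B (5.18 ± 0.39) and IVL (6.4 ± 1.14), while S100A8 was at 0.26 ± 0.12 and not called, and outside the list A2ML1 was called (4.58 ± 0.24). Of the 13, 4 (KLK5, SPRR2D, SPRR3 and TGM3) had been tested under ethanol only because of their YAPi_ETH level. Only 2 genes were called in opposite directions, SERPINE2 (1.45 ± 0.3 under ethanol and -0.66 ± 0.16 under tamoxifen) and the hyaluronidase CEMIP2 (0.78 ± 0.19 and -0.37 ± 0.1).

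A test of the difference between the treatments called 37 of 4388 genes (0.843%), 17 of them also called under ethanol. Only 360 of the 595 ethanol calls had an adjusted p in this test. The split of the interaction calls moved between settings. It was 15 with a higher ethanol contrast and 22 with a lower one in the main fit, and 22 and 20 with TMM factors (11147 genes tested). With median-of-ratios factors and a mean count of at least 10 (14915 genes tested) it was 25 and 22. Among the genes called in this test with a mean of at least 100 normalized counts, S100A8 and S100A9 had the highest ethanol contrast relative to tamoxifen. On a scale set over the 8 libraries, S100A8 was at 5949 and 5409 normalized counts in YAPi_ETH and 703 and 834 in TAZi_ETH, but at 51847 and 39061 in YAPi_TAM and 38144 and 37958 in TAZi_TAM, so that under tamoxifen the level was high after both knockdowns. The interaction, the ethanol contrast minus the tamoxifen contrast, was 2.63 ± 0.18 (adjusted p = 2.1e-44) for S100A8 and 1.89 ± 0.18 (adjusted p = 3.4e-23) for S100A9. CD24, a surface glycoprotein of differentiating epithelium, went the other way (-1.99 ± 0.2, adjusted p = 2e-19), with 4870.1 and 5542 in YAPi_ETH, 1637 and 1948 in TAZi_ETH, 5751 and 5781 in YAPi_TAM and 406 and 585 in TAZi_TAM. Here the YAPi libraries were near their ethanol level under tamoxifen and the TAZi libraries were far below it. PPL, periplakin (-1.67 ± 0.18), and FGFBP1, a carrier of fibroblast growth factors (-1.66 ± 0.22), were not called under ethanol and were higher in YAPi under tamoxifen (1.33 ± 0.14 and 1.99 ± 0.19). MVD of the sterol list was lower in YAPi under ethanol and not under tamoxifen (0.04 ± 0.12, interaction -0.9 ± 0.18, adjusted p = 0.00011). The interaction of ENTPD3, GRHL1 and SERPINE2 had no adjusted p in the main fit. The filter of that fit on the mean count gave an adjusted p to 4388 of the 36153 genes with a p. The interaction of these 3 genes was called when all genes whose mean count reached 10 were tested. Of the 13 sterol and fatty acid genes called under ethanol 3 (FADS1, FADS2 and ACAT2) were called under tamoxifen, with estimates from -0.87 to 0.04.

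**Figure D5:**
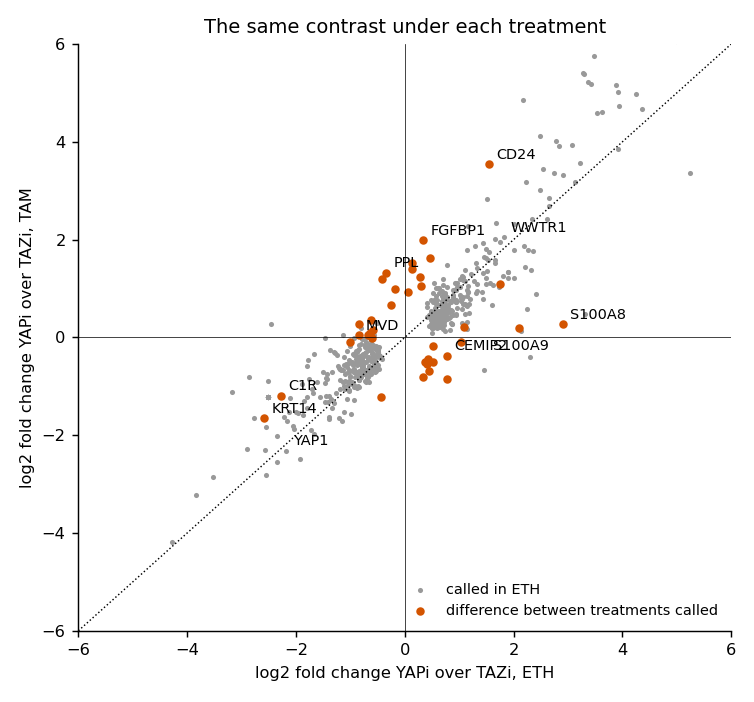
Log2 fold change of YAPi over TAZi under ethanol (x axis) and under tamoxifen (y axis) for the genes called under ethanol (grey) and the 37 genes whose contrast was called different between treatments (orange), with the line of equal values dotted and 9 points beyond 6 not drawn. Most points follow the line, with S100A8 and S100A9 to its right near 0 under tamoxifen and CD24, FGFBP1 and PPL above it.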

How the data were processed

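RNA was sequenced from MCF-10A ER-Src cells with a TruSeq Ribo Profile kit and the reads were aligned with STAR and quantified with RSEM by the authors against hg38 and GENCODE 30, the tool versions being not given in the sources used here. The deposited values were RSEM expected counts, which the authors left unnormalized, and TPM, which the authors' RSEM run scaled by effective length and library size. Expected counts of the 60725 Ensembl genes were rounded to whole numbers and tested with DESeq2 1.42.0 in R 4.3.3, with median-of-ratios size factors, a Wald test and calls at an adjusted p under 0.01, which follows the study's methods. Normalized counts are counts divided by size factors over the YAPi, TAZi and Ctrli ethanol libraries, or over the 8 YAPi and TAZi libraries for the interaction. Symbols and coordinates came from GENCODE 44 (93.14% of IDs matched). Alternatives were edgeR 4.0.16, TMM factors, effective length offsets, a mean count of at least 10, the replicate block, a fit over 10 groups, a threshold of 0.05 and leaving out each library. The code was tested on simulated data with 200 changed genes, of which DESeq2 recovered 79% in the ethanol contrast at a log2 change of 1.5, with 7 false calls. The simulated counts were drawn with the dispersions fitted to these data, so they cannot show whether those dispersions are right. Genes were named as the targets, the factors the study set beside them, the 12 highest and 12 lowest called protein-coding genes with a mean of at least 100 normalized counts and no overlap, up to 4 called members per direction of each list, pathway and target genes with a mean of at least 50, and the 5 strongest interactions. CD68, KRT6A, KRT17, KRT10, SREBF2, IVL, LCN2, TGM3, the histone genes, the genes of the chromosome 1 stretch and other members outside this rule were chosen after their values were seen. The members and lists were chosen with earlier results of these data known. Some genes of the lists are not reported here.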

Additional observations from a re-analysis of the deposited data

Results flagged for a closer look

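The contrast of YAP with TAZ knockdown was called different between ethanol and tamoxifen for 37 genes in the interaction test, 18 of them called under tamoxifen and not under ethanol, 13 under ethanol and not under tamoxifen, 4 in both and 2 in neither. Among the genes named that were called in this test, the ethanol contrast was above the tamoxifen contrast for S100A8 (interaction 2.63 on the log2 scale), S100A9 (1.89) and TIMP1 (0.88). It was below for CD24 (-1.99), PPL (-1.67), FGFBP1 (-1.66), TGM1 (-1.13), C1R (-1.09), KRT14 (-0.94), ID1 (-0.9), MVD (-0.9) and KRT7 (-0.74). TGM1, the envelope transglutaminase, was lower in YAPi under ethanol (-0.85 ± 0.17) and was at 0.27 ± 0.15 under tamoxifen. C1R had an adjusted p of 0.0054 (DESeq2), and of 0.44 when all genes whose mean count reached 10 were tested. S100A8 had an adjusted p of 0.057 in the fit over all groups, and CD24 and FGFBP1 had 0.022 and 0.019 with edgeR.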

How the results depend on the processing

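Against 595 calls under ethanol, edgeR gave 182 and a threshold of 0.05 gave 999, and leaving out a library gave 143 to 208, with 76 of the 595 called in all 4 such fits and none with the opposite sign. Under tamoxifen (923) edgeR gave 414, the replicate block 602, a threshold of 0.05 1463, and leaving out a library 231 to 699. The interaction (37) gave 6 with edgeR, 20 in the fit over all groups, and 12 to 57 with a library left out. TMM factors (576), effective lengths (445), a mean count of at least 10 (645) and the fit over all groups (704) stayed within 1.5 times of the ethanol count. The labels do not say whether libraries with the same replicate number belong together, and the main fits treated them as unpaired. Deviations of the libraries numbered 1 had r = 0.505 over 9876 genes, with 2 pairs, and a shared replicate batch was not tested. The replicate block gave 519 calls under ethanol and 50 for the interaction, WWC1, CDC20 and TGFA being no longer called. Of 91 named genes called, 35 lost the call with edgeR and 37 kept it in all 4 fits with a library left out. The cause of these differences was not tested. With 2 libraries a group, small differences and genes with few counts, such as IL6, could not be resolved, and fits with a library left out assume that the lone library varies like the others.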
